A study of Mus musculus with 62 samples.

Results

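Mitf and 5 genes that mark mast cells and basophils (Cpa3, Hdc, Fcer1a, Ms4a2 and Mcpt8) were followed through CUT&Tag profiles of bone marrow hematopoietic stem and progenitor cells (HSPCs) in which the histone chaperone Daxx had been deleted. They are 6 of 21951 protein-coding genes of the annotation used. CUT&Tag tethers the Tn5 transposase to an antibody and so sequences the DNA next to the protein or mark that the antibody binds, here the histone variant H3.3, the transcription factor Pu.1, or histone H3 acetylated on lysine 27 (H3K27ac) or trimethylated on lysine 9 (H3K9me3) or lysine 27 (H3K27me3). The measurements were 14 tables of differential sites, each comparing the libraries of 2 genotypes for 1 antibody at 3, 8 or 24 weeks post induction (w.p.i.), and together they hold 54 of the 62 libraries of the series.

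WT mice were Daxx +/+ Cre +/-, Daxx-KO mice were Daxx F/F Cre +/-, and DKO mice were Daxx F/F with, in addition, Pu.1 F/F and Cre +/-, all on C57BL/6. Every group therefore carried a Cre allele and had been induced, WT included. The study's methods describe Mx1-Cre induced with pI:pC and Rosa26-CreERT2 induced with tamoxifen for the Daxx allele. Their CUT&Tag section does not say which line was used. Pu.1 F/F mice were crossed with Daxx F/F mice that carried Mx1-Cre. Mx1-Cre recombines in blood cells and in other interferon-responsive tissues. By the methods mice of both sexes were used and were usually induced as young adults. The labels give neither the Cre line nor the age of a mouse. The cells were lineage-negative and c-Kit-positive bone marrow cells enriched on magnetic columns, a mixture in which mast cell and basophil precursors are a small share. In such bulk samples a change in the number of cells of a type and a change in the signal per cell cannot be told apart. Daxx-KO was compared with WT at 3 w.p.i. (H3.3, Pu.1, H3K27ac, H3K9me3), 8 w.p.i. (H3K9me3) and 24 w.p.i. (all 5 antibodies), with 2 libraries a group at 3 and 24 w.p.i. and 3 a group at 8 w.p.i., and DKO was compared with WT and with Daxx-KO at 8 w.p.i. for H3K9me3 and H3K27me3.

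MITF is a basic helix-loop-helix leucine zipper factor that mast cells, melanocytes and osteoclasts depend on, and its gene is read from several alternative promoters spread over a long first part of the locus. Mast cells and basophils both carry the high-affinity IgE receptor, whose binding chain is encoded by Fcer1a and whose signal-amplifying beta chain is encoded by Ms4a2. Both cell types make histamine with histidine decarboxylase (Hdc), and both store proteases in granules. Carboxypeptidase A3 (Cpa3) is such a protease and is already transcribed in early progenitors, while Mcpt8 is the serine protease by which mouse basophils are recognised. Pu.1 takes part in the choice between mast cell and other myeloid fates together with GATA factors.

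For each gene, sites were taken from the gene body plus 20 kb on each side. The value at a site is the normalized count, that is the reads of a library in the site divided by that library's normalization constant. A site is called here when it is listed with an adjusted p under 0.05 in the deposited table, and it is called gained or lost when the mean normalized count of the genotype named first is above or below that of the second. These tables hold only sites selected on the contrast itself, in the same libraries, and the 6 genes were themselves chosen by earlier readings of the same tables. The values below are therefore a description, with no test. The smallest two-sided p that an exact permutation of the libraries allows is 0.333 with 2 in each group and 0.100 with 3 in each.

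The 6 windows held 332 listed sites, of which 328 were called, 164 gained and 164 lost. At 323 of the called sites every library of one group lay above every library of the other, which the selection of the sites largely fixes, and at 5 the groups overlapped. Of the called sites, 189 overlapped the gene body and 139 lay in a flank only. Mitf, on chromosome 6 (97807052 to 98021349, mm10), is the longest gene, and its window of 254.3 kb held 162 called sites and no other protein-coding gene. Hdc (chromosome 2, 126593667 to 126619299, minus strand) had 58 in 65.6 kb, a window shared with Gabpb1 and Slc27a2. Mcpt8 (chromosome 14, 56082166 to 56085273, minus strand) had 38 in 43.1 kb, shared with the protease genes Ctsg and Mcpt4. Ms4a2 (chromosome 19, 11615523 to 11623719, minus strand) had 35 in 48.2 kb, shared with Ms4a3 and Ms4a6d. Fcer1a (chromosome 1, 173221284 to 173227214, minus strand) had 20 in 45.9 kb, shared with Olfr1404 and Olfr218, and Cpa3 (chromosome 3, 20215620 to 20242181, minus strand) had 15 in 66.6 kb, shared with Cpb1.

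The 4 listed sites that were not called were an H3.3 and a Pu.1 site at Mitf, an H3K27ac site on the Fcer1a promoter and an H3K27ac site upstream of Hdc. On the Fcer1a promoter the normalized counts were 9.69 and 22.9 in Daxx-KO against 65.5 and 15.4 in WT at 3 w.p.i., so the groups overlapped there. At the edge of the windows, the called site that reached least far inside was a Pu.1 site of Mcpt8 that entered it by 22 bp, with 6.3 and 20.3 in Daxx-KO against 79.4 and 60.7 in WT at 3 w.p.i. The nearest called site outside lay 116 bp beyond the other edge of the same window, with 3.4, 0.87 and 2.18 for H3K27me3 in DKO against 8.75, 15.4 and 8.94 in WT.

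The sequences that the results turn on are given here. The first group are promoter stretches of RefSeq (GRCm38.p6, which is mm10), the part of each 300-base entry that is outside annotated exons, 5′ to 3′ on the strand of the gene. All 6 genes matched, with 8 entries that were identical to the genome, and those shown overlapped called sites. The Hdc stretch is chr2:126618679-126618928 (minus strand), the Mcpt8 stretch chr14:56085274-56085447 (minus strand), the first Mitf promoter chr6:97806808-97807051 (plus strand) and the second, 122.7 kb downstream, chr6:97929567-97929798 (plus strand). Capitals mark matches on either strand to GAGGAA, a core read by Pu.1 and other ETS factors, to the GATA words AGATAA and, as a variant, TGATAA, and to E-boxes of the kind MITF binds, with the letters CATGTG or the palindrome CACGTG.
Hdc promoter: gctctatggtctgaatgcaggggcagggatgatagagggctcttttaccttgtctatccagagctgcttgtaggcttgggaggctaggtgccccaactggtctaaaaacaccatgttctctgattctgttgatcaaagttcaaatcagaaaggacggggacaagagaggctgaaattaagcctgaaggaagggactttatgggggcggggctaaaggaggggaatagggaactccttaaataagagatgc
Mcpt8 promoter: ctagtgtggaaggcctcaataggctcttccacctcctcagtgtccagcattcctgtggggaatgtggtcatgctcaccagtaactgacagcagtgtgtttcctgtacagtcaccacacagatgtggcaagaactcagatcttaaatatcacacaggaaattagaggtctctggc
Mitf first promoter: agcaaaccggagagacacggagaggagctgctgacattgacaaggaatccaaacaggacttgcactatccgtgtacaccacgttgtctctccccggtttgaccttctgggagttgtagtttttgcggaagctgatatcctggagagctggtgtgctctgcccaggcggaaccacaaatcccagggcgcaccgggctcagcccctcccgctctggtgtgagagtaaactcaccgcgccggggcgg
Mitf second promoter: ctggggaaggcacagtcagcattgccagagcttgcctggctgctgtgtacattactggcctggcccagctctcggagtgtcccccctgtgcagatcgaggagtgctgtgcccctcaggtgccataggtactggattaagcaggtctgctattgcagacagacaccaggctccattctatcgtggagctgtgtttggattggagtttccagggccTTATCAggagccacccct

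The second group are the middle 300 bases of 3 sites, on the plus strand of mm10. The Hdc site (chr2:126606001-126606300) is the called site inside the Hdc gene with the largest H3K27ac difference at 24 w.p.i. The first Mitf site (chr6:97965801-97966100) lies in an intron and lost both Pu.1 and H3.3 at 3 w.p.i., and the second (chr6:97947451-97947750), also in an intron, gained H3K9me3 in DKO. Capitals mark the same words.
Hdc H3K27ac site: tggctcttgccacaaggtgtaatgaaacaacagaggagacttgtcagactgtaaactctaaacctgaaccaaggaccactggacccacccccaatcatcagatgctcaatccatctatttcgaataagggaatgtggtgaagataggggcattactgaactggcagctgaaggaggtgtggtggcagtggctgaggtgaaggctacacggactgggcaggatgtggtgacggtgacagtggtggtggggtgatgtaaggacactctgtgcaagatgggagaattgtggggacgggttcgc
Mitf Pu.1 and H3.3 site: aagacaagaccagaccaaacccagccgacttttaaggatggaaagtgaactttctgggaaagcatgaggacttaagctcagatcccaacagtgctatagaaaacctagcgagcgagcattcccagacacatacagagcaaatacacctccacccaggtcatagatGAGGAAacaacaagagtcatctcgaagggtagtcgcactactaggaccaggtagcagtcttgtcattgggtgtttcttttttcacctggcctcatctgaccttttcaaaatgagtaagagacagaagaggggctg
Mitf H3K9me3 site: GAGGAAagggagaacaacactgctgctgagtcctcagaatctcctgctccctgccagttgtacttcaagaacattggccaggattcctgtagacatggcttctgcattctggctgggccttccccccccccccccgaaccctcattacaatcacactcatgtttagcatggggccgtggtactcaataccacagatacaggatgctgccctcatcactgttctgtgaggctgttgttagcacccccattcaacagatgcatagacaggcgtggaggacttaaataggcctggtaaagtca

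Over the 300 bases of each promoter entry the Hdc entry and the first Mitf entry held none of these words, the second Mitf entry held 1 GATA word, and the Mcpt8 entry held 1 GAGGAA word, outside the stretch shown. Of the entries not shown, the third Mitf entry and Cpa3 held 1 GATA word each, Ms4a2 held 3, and Fcer1a held 1 match to each of the 3 motifs. Among all 32851 promoters of the same length, 28.3% held the GAGGAA word, 18.6% a GATA word and 20.4% an E-box. A match is only a string of letters, and its absence says nothing of the factor.

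The direction of the called sites differed by antibody and time, as the plot of counts by gene shows. For H3K27ac at 3 w.p.i., 30 of 42 called sites over the 6 genes were gained in Daxx-KO (71.4%, Wilson 95% interval 56.4 to 82.8%, counting error only), while 41.4% of all called sites of that table were gained. The median log2 ratio of the members' sites was 1.41, against -1.88 over all called sites with a ratio. At 24 w.p.i. 27 of 68 H3K27ac sites were gained (39.7%), beside 42.3% of all. H3.3 and Pu.1 at 3 w.p.i. were mostly lost at the 6 genes and mostly gained over their tables. For H3.3, 12 of 34 sites were gained (35.3%, interval 21.5 to 52.1%) beside 58.3% of all, with medians of -1.63 and 1.14, and for Pu.1, 8 of 26 were gained (30.8%, interval 16.5 to 50%) beside 55.2%, with medians of -1.43 and 0.93. Most of these losses were at Mitf. At the other 5 genes 6 of 11 H3.3 sites (54.5%) and 5 of 13 Pu.1 sites (38.5%) were gained. By 24 w.p.i. 28 of 55 H3.3 sites (50.9%) and 20 of 49 Pu.1 sites (40.8%) were gained, beside 52.6% and 48.1%. Neighbouring sites are not independent of each other, and the intervals do not cover the spread between mice.

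The repressive marks were sparser. H3K9me3 had 6 called sites at 3 w.p.i., all gained (78.9% of all sites of the table were), 3 at 8 w.p.i. in Daxx-KO against WT of which 2 were gained (65.2% of all), and 13 at 24 w.p.i. of which 9 were gained (69.2%, beside 47.9% of all). In DKO, 2 H3K9me3 sites were called against Daxx-KO and 2 against WT, all gained, where 73.4% and 81.4% of all sites were. For H3K27me3, 10 of 12 sites were gained in DKO against Daxx-KO (83.3%, beside 65.4%) and 7 of 7 in DKO against WT (beside 56.1%). In Daxx-KO at 24 w.p.i. 1 of 9 H3K27me3 sites was gained (11.1%, interval 1.99 to 43.5%, beside 41.1%). Of the 7 sites in DKO against WT 5 lie in the Ms4a2 window, and with 50 kb on each side of the genes in place of 20 the gained share in that comparison was 57.9%, near that of all sites.

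**Figure D1:**
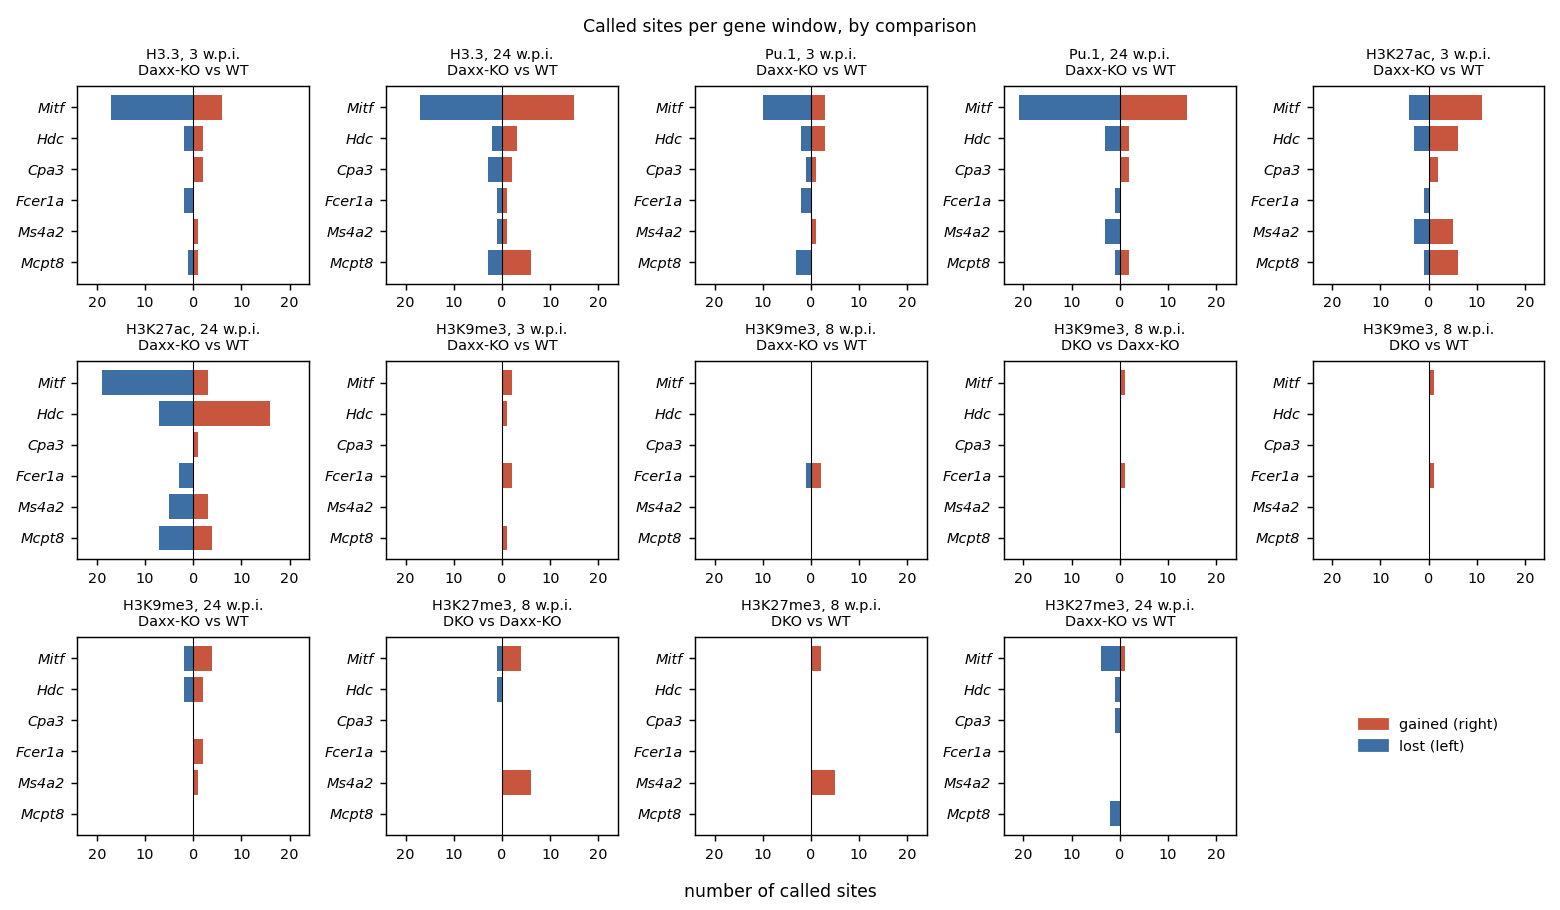
Number of called sites in the window of each gene (gene body plus 20 kb on each side) for each of the 14 comparisons, with gained sites to the right of 0 and lost sites to the left. Mitf had most sites in the H3.3, Pu.1 and 3 w.p.i. H3K27ac panels, its H3K27ac sites were 11 gained and 4 lost at 3 w.p.i. and 3 gained and 19 lost at 24 w.p.i., and Hdc had 16 gained H3K27ac sites at 24 w.p.i.

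Facts of the libraries that touch these values are as follows. The mean number of reads per 600-bp window was 1.21 to 33.78 in the libraries of 3 w.p.i., 0.2 to 3.29 at 8 w.p.i. and 3.97 to 10.3 at 24 w.p.i. The 3 w.p.i. WT libraries for H3.3 and Pu.1 were unequal, with means of 22.88 and 3.06 for H3.3 and 33.78 and 2.75 for Pu.1, so that 1 read of WT replicate 2 counts as 2.63 and 3.23 normalized counts. By the labels all 5 antibodies at 24 w.p.i. came from the same 4 mice, and H3K9me3 and H3K27me3 at 8 w.p.i. from the same mice of each genotype. At 3 w.p.i. H3.3 and Pu.1 shared WT replicate 2 and both Daxx-KO mice, and their WT replicate 1 has no mouse label. H3K27ac and H3K9me3 shared their mice, of which WT replicate 2 was also that of H3.3 and Pu.1. Tables were normalized separately and no labelled mouse was used at more than 1 time, so levels are compared only within a table. The tables list changed sites only, and the level of lineage markers, or of the deleted Daxx and Pu.1 genes, could not be checked in them.

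Mitf is described first, as the transcription factor of the group. H3K27ac over the gene was gained at 11 of 15 called sites at 3 w.p.i., beside 41.4% of all called sites. It was lost at 19 of 22 at 24 w.p.i., where 42.3% of all called sites were gained. All 19 lost Mitf sites were in the gene body. The gained sites of 3 w.p.i. had Daxx-KO means of 8.61 to 44.7, and the strongest of them, at +11.6 kb from the first start site in the first intron (97818301 to 97819050), had 43.6 and 45.9 in Daxx-KO against 16.1 and 8.83 in WT. At the lost sites of 24 w.p.i. the WT means were 42.4 to 971.0. The strongest of these sites, at +14.5 kb (97820451 to 97822700), had 524.5 and 699.6 in Daxx-KO against 853.4 and 1088.5 in WT, a log2 ratio of -0.67, and both Daxx-KO libraries were below both WT libraries.

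Around that peak the H3K27ac losses of 24 w.p.i. formed a run from the first promoter into the first intron. The site on the first exon, +0.6 kb (97807101 to 97808200), had 53.2 and 35.1 in Daxx-KO against 117.3 and 98.9 in WT (log2 ratio -1.29). At +22.5 kb the values were 154.4 and 153.7 against 265.9 and 375.8 (log2 ratio -1.06), and at +49.2 kb they were 86.2 and 125.9 against 235.7 and 379.7 (log2 ratio -1.54). At each of these 3 sites both Daxx-KO libraries were below both WT libraries. The 3 gained H3K27ac sites of 24 w.p.i. were at -15.6 kb, +11.8 kb and +140.6 kb, with log2 ratios of 1.00 to 2.09. The one at +11.8 kb overlapped the gained site of 3 w.p.i. at +11.6 kb and had 79.4 and 80.5 against 32.4 and 47.5, so this stretch was higher in Daxx-KO at both times.

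The first Mitf promoter, whose sequence is shown above, carried called sites of both histone H3 lysine 27 marks. At 3 w.p.i. H3K27ac just before it (97806351 to 97806950) was 5.81 and 69.7 in Daxx-KO against 9.67 and 8.83 in WT, so 1 Daxx-KO library was far above and the other below both WT libraries. Without Daxx-KO replicate 2 the log2 ratio of that site turns from 2.03 to -0.67, and the gain there rests on 1 library. At 24 w.p.i. H3K27me3 over the promoter and first exon (97806501 to 97807800) was 97.3 and 113.2 in Daxx-KO against 183.9 and 168.5 in WT, a log2 ratio of -0.74, the highest H3K27me3 level of a called site over the 6 genes in that table. H3K27me3 and H3K27ac were thus both lower at this promoter in Daxx-KO at 24 w.p.i. H3K27me3 was also lost at -15.7 kb (34.3 and 23.9 against 79.4 and 94.2) and at +3.3 kb (20.7 and 41.4 against 85.9 and 88.5).

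**Figure D2:**
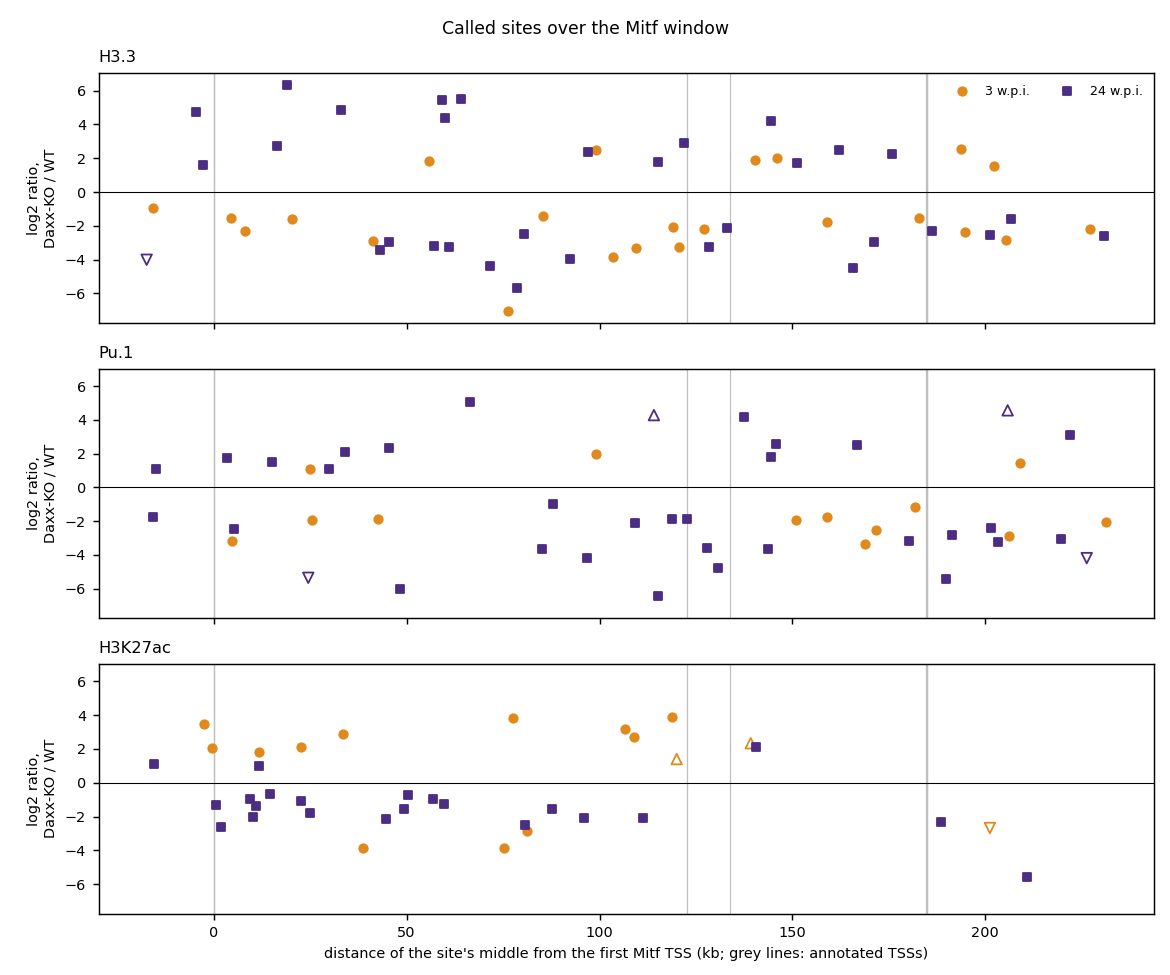
Called sites over the Mitf window for H3.3, Pu.1 and H3K27ac, at 3 w.p.i. (orange) and 24 w.p.i. (purple), by the distance of the site's middle from the first Mitf start site (kb) and the log2 ratio of the mean normalized counts, Daxx-KO over WT. Grey lines mark annotated start sites, and open triangles mark sites where 1 group was at 0, drawn at the bound that 3 reads per library allow. The H3K27ac points of 3 w.p.i. are mostly above 0 and those of 24 w.p.i. mostly below.

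H3.3 and Pu.1 at 3 w.p.i. fell over most called sites of Mitf, with 17 of 23 H3.3 sites and 10 of 13 Pu.1 sites lost. Over all called sites 58.3% were gained for H3.3 and 55.2% for Pu.1. The intronic site printed above lost both. For Pu.1 (97965651 to 97966250) it had 12.6 and 15.4 in Daxx-KO against 55.4 and 38.4 in WT (log2 ratio -1.74), and for H3.3 (97965701 to 97966400) 12.6 and 29.5 against 68 and 78.6 (log2 ratio -1.80). It holds 1 GAGGAA word, shown in capitals, and none of its bases is marked as repeat. Of all called Pu.1 sites of 3 w.p.i., gained or lost, 25.6% hold that word in the middle 300 bases. The strongest lost Pu.1 site was at +25.5 kb, with 27.6 and 25.1 against 101.8 and 95.9, and the largest H3.3 loss, at +76.4 kb (97883101 to 97883800), had 0.79 and 0 against 48.4 and 57.6. At each of these sites both Daxx-KO libraries were below both WT libraries. The called sites can lie side by side, and a Pu.1 site that overlaps the one at +25.5 kb (97831551 to 97832300) was called gained, with 44.1 and 74.6 against 30.8 and 25.6.

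A site of the opposite kind was at +99.0 kb, inside an intron. H3.3 (97905651 to 97906450) was 37.1 and 50.1 in Daxx-KO against 0 and 15.7 in WT, and Pu.1 (97905701 to 97906550) was 48 and 52.7 against 0 and 25.6. At 24 w.p.i. H3K9me3 over the same stretch (97905351 to 97906650) was 114.1 and 102.1 in Daxx-KO against 172.6 and 224.9 in WT, a log2 ratio of -0.88. The middle 300 bases of this gained Pu.1 site also hold 1 GAGGAA word. All bases of the Pu.1 site are soft-masked as repeat, and it is 1 of 5 Mitf sites of 162 with 80% or more of the bases masked. Reads in repeats can come from other copies, and whether these do was not tested.

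At 24 w.p.i. H3.3 and Pu.1 sites of Mitf were divided, with 15 of 32 and 14 of 35 gained, beside 52.6% and 48.1% of all. The second promoter, printed above, was one of the places where marks differed between times. H3K9me3 (97929051 to 97929800) was 13.9 and 10 in Daxx-KO against 1.75 and 0 in WT at 3 w.p.i., a low level in both groups. At 24 w.p.i. Pu.1 over this start site (97929301 to 97930150) was 0 and 25.1 against 51.8 and 40 (log2 ratio -1.87), while H3.3 directly upstream (97928351 to 97929300) was 119.2 and 142.6 against 20.3 and 15, a log2 ratio of 2.89 and the highest H3.3 level of a called Mitf site in Daxx-KO at that time. The highest Pu.1 site was at +145.8 kb (97952051 to 97953750), with 398.1 and 83.6 in Daxx-KO against 66.2 and 14.7 in WT. Its Daxx-KO libraries differed from each other by more than the lower of them differed from WT.

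The intronic site at +140.5 kb, the third Mitf sequence above, was called for 3 antibodies. H3.3 at 3 w.p.i. (97947151 to 97947750) was 36.3 and 39.8 in Daxx-KO against 20.3 and 0 in WT, and H3K27ac at 24 w.p.i. (97947201 to 97948150) was 77.9 and 49.8 against 13.4 and 16.6 (log2 ratio 2.09). H3K9me3 in DKO at 8 w.p.i. (97947301 to 97947900) was 12.9, 6.91 and 10.7 against 0, 1.48 and 1.43 in WT, and in the comparison with Daxx-KO they were 12.2, 6.54 and 10.2 against 0, 0 and 0 in Daxx-KO, at least 5.47-fold higher when Daxx-KO is set to 3 reads per library. Both comparisons use the same 3 DKO libraries. Their H3K9me3 depth was uneven, with means of 0.67, 0.21 and 3.28 reads per window against WT, and 1 read of DKO replicate 2 counts as 3.45 normalized counts there, so the value of this library rests on very few reads.

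Hdc, the histamine-forming enzyme, had the most called H3K27ac sites per length of the 6 genes at 24 w.p.i. At 24 w.p.i. 23 sites were called in its window, 16 gained and 7 lost, or 35 per 100 kb, above 93.2% of the windows of protein-coding genes, and at 3 w.p.i. 9 sites, 6 gained and 3 lost, above 88.9%. Over all called H3K27ac sites 42.3% were gained at 24 w.p.i. and 41.4% at 3 w.p.i. Inside the Hdc gene body 11 of 13 sites of 24 w.p.i. were gained, by 1.38 to 2.38 times. The 3 strongest had Daxx-KO means of 4109.7, 3522.7 and 1941.9. The site at +17.6 kb (126600551 to 126602900) had 4112.2 and 4107.1 in Daxx-KO against 1738.1 and 2618.4 in WT, and that at +13.1 kb (126605001 to 126607300), whose middle is printed above, had 3921.9 and 3123.5 against 1609.7 and 1345.6 (log2 ratio 1.25). The site nearer the 3′ end (126595951 to 126598650) had 2007.4 and 1876.4 against 924.9 and 1107.5. At all 3 both Daxx-KO libraries were above both WT libraries. The printed stretch is free of masked repeat and holds none of the words searched.

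At the Hdc promoter H3K27ac of 24 w.p.i. (126618001 to 126618950) was 1309.8 and 837.2 in Daxx-KO against 566.3 and 692.2 in WT, a log2 ratio of 0.77, and just upstream (126619751 to 126620400) it was 283.2 and 269.3 against 109.5 and 194.6. The 3 w.p.i. libraries showed the same direction at +17.7 kb (126601051 to 126602200), with 103.7 and 114.7 against 32.2 and 55.2. They showed the opposite near the promoter, where the site at +1.8 kb (126617051 to 126617900) had 24.2 and 20.4 against 51.6 and 48.5, and the site of 24 w.p.i. within it had 382.1 and 235.7 against 217.8 and 229.4. The gain of 24 w.p.i. there is small, with a log2 ratio of 0.47, and the lower Daxx-KO library exceeded the higher WT library only narrowly. The 5 lost sites of the flanks at 24 w.p.i. were weaker, with WT means of 41.1 to 176.1, and 4 of them overlapped the neighbour Gabpb1.

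**Figure D3:**
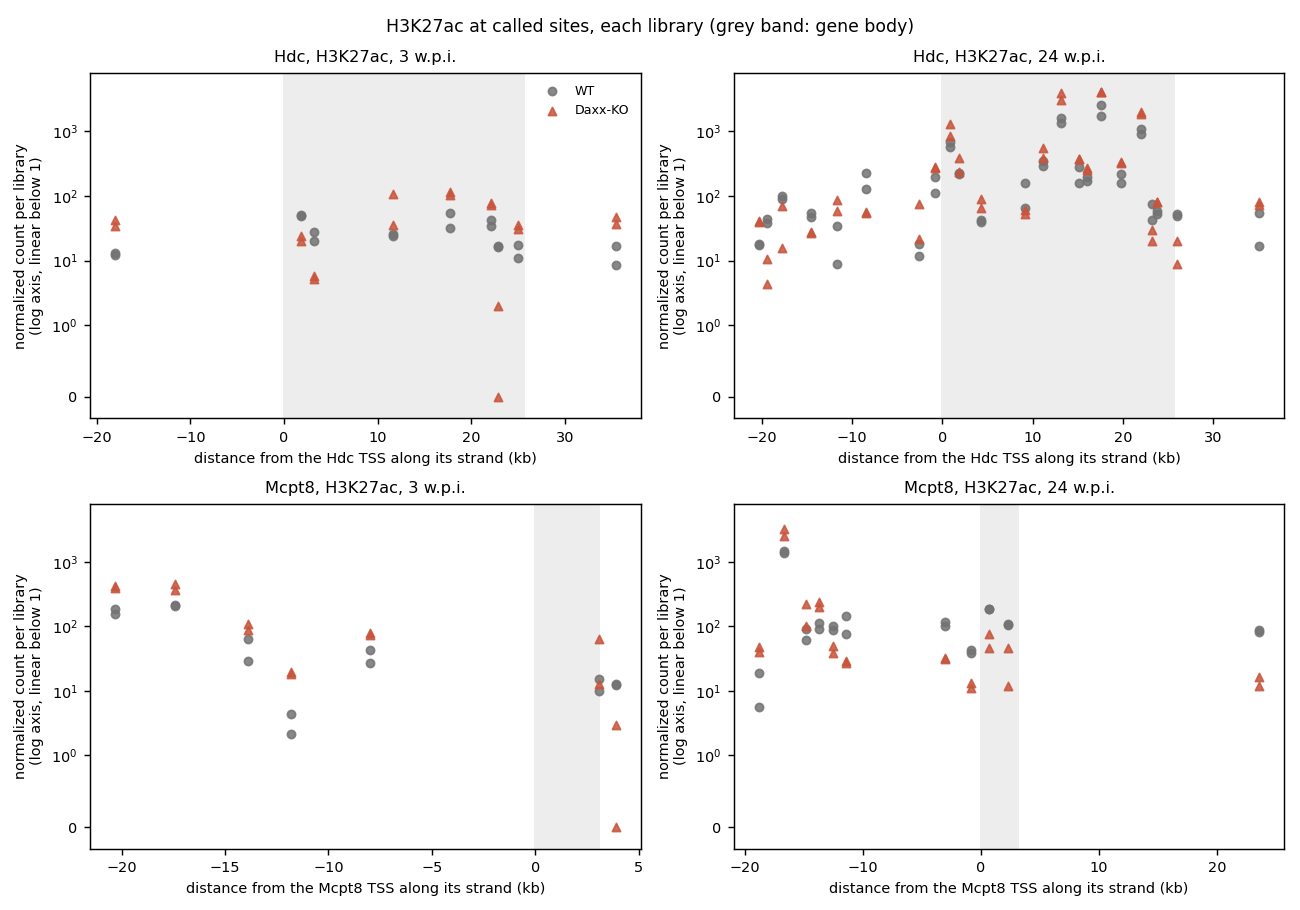
H3K27ac at the called sites of Hdc and Mcpt8, each library a point (WT grey circles, Daxx-KO red triangles), by distance from the gene's first start site along its strand (kb), with the normalized count on a log axis that is linear below 1. The grey band is the gene body. Over Hdc at 24 w.p.i. the 3 strongest sites have both Daxx-KO libraries above both WT libraries. Over the Mcpt8 gene body at 24 w.p.i. the Daxx-KO libraries lie below WT, and at the strongest upstream site they lie above.

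The other antibodies gave few sites at Hdc. H3.3 at 24 w.p.i. was gained in a 3′ exon of the gene (126597951 to 126598700), with 28.7 and 117.7 in Daxx-KO against 20.3 and 0 in WT, and it was lost at +24.4 kb, with 0 and 13.6 against 34.1 and 95. The largest H3.3 gain, 106.0 and 246.7 against 7.38 and 0, was at -18.4 kb within Gabpb1. H3K9me3 at 24 w.p.i. was lost at both sites inside Hdc, with 2.55 and 10.4 against 70 and 37.5 at +10.3 kb (log2 ratio -3.05) and 25.5 and 27.1 against 65.3 and 52.5 at +8.1 kb, and it was gained at both sites upstream in Gabpb1. Over the gene body of Hdc at 24 w.p.i., then, H3K27ac was mostly higher and both called H3K9me3 sites were lower in Daxx-KO. At 3 w.p.i. the only H3K9me3 site of Hdc, at +7.2 kb, was higher in Daxx-KO, at 9.3 and 11.7 against 1.75 and 0. These H3K9me3 sites are largely soft-masked as repeat, with 65.6% of the bases at +10.3 kb, 85.1% at +8.1 kb and 87% at +7.2 kb. Whether their reads come from other copies was not tested.

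Mcpt8, the basophil protease, and the region upstream of it differed in direction. At 24 w.p.i. H3K27ac was lost across the gene, with 74.9 and 45.4 in Daxx-KO against 185.4 and 185.9 in WT over the first exon and promoter (56083851 to 56085350, log2 ratio -1.63) and 45.7 and 11.7 against 106.1 and 109.2 over the 3′ part (56082351 to 56083650, log2 ratio -1.91). It was lost just upstream at -3.0 kb as well, with 30.7 and 32.2 against 118.4 and 99.7. H3K27me3 in the 3′ part at 24 w.p.i. was 3.19 and 0 against 48.5 and 35.7 and Pu.1 there was 0 and 3.13 against 31.7 and 38.9, so 3 antibodies, all from the same 4 mice, read lower on Mcpt8 itself. At 3 w.p.i. the gene had 1 H3K27ac site inside it, at which the groups overlapped (12.6 and 64.6 against 15 and 9.93).

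Farther upstream the H3K27ac sites of Mcpt8 lie on and around Ctsg, the gene of cathepsin G, which neutrophil precursors transcribe strongly. The site on Ctsg (56100501 to 56103350) was 2470.5 and 3186.4 in Daxx-KO against 1389.6 and 1482.5 in WT at 24 w.p.i. (log2 ratio 0.98), and at 3 w.p.i. (56102051 to 56103300) it was 452.5 and 360.2 against 216.0 and 208.5 (log2 ratio 0.94). The one beyond it at 3 w.p.i. (56104601 to 56106600) was 418.6 and 387.4 against 182.7 and 156.7. Both Daxx-KO libraries were above both WT libraries at both times. H3.3 at Ctsg (56102201 to 56103150) was 0 and 13.3 against 61.7 and 49.8 at 3 w.p.i., and at 24 w.p.i. (56102151 to 56103300) it was 174.4 and 140.3 against 38.7 and 3.76. In all, 6 of 7 H3K27ac sites of the Mcpt8 window were gained at 3 w.p.i. and 4 of 11 at 24 w.p.i., and the gained sites of 24 w.p.i. all lay 13.7 kb or more upstream of Mcpt8.

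Markers of other lineages also had called sites in the same H3K27ac comparisons. Over all called sites 41.4% were gained at 3 w.p.i. and 42.3% at 24 w.p.i. The 12 neutrophil granule genes, a list that includes Ctsg, had 47 gained and 22 lost sites at 3 w.p.i. and 139 gained and 32 lost at 24 w.p.i. (81.3% gained, 11 of 12 genes with more gained than lost). The 6 HSPC genes had 81 gained and 18 lost at 3 w.p.i. and 79 and 58 at 24 w.p.i., and the 9 B lineage genes 50 and 16, then 57 and 48. The 7 erythroid genes had 8 gained and 29 lost, then 15 and 38, and the 5 eosinophil genes 8 and 20, then 21 and 18. No marker level can be read where a table lists no site. The part of such differences in cell type in the values at the 6 genes was not tested.

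Cpa3, the granule carboxypeptidase, had few called sites, with 10 gained and 5 lost over all tables, and none for H3K9me3. H3K27ac was gained at 3 of 3, beside 41.4% of all sites at 3 w.p.i. and 42.3% at 24 w.p.i. With 50 kb on each side of Cpa3 1 of 3 sites was gained at 24 w.p.i. At 3 w.p.i. the site at -2.0 kb (20243651 to 20244800) had 60.1 and 115.5 in Daxx-KO against 34.4 and 27.6 in WT, and the intronic site at +18.2 kb (20223551 to 20224350) had 47.5 and 56.9 against 21.5 and 27.6. At 24 w.p.i. the only site, on the more 3′ of its annotated start sites (20240651 to 20241300), had 61.4 and 36.6 against 16.8 and 16.6. All 3 had both Daxx-KO libraries above both WT libraries. H3.3 near the intronic site was opposite at the 2 times, from 55.3 and 59 against 24.5 and 20.9 at 3 w.p.i. to 6.62 and 2.26 against 66.4 and 60.2 at 24 w.p.i. over overlapping bases.

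Downstream of Cpa3, at +38.2 kb (20203451 to 20204600), Pu.1 was 111.8 and 219.4 in Daxx-KO against 1.44 and 48.4 in WT at 24 w.p.i. (log2 ratio 2.73). The overlapping site of 3 w.p.i. had 35.5 and 41.3 against 18.8 and 0, so Pu.1 was higher in Daxx-KO at both times there. A Pu.1 site inside the gene had 118.6 and 83.6 against 8.64 and 25.3 at 24 w.p.i. (+13.9 kb), and another, at +12.2 kb, had 0 and 10.5 against 55.4 and 38.4 at 3 w.p.i. The single H3K27me3 site, at +42.4 kb and at 24 w.p.i., was lost (0 and 10.1 against 61.6 and 28.6).

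Of the IgE receptor chains, Fcer1a had no called site in its own gene body with any antibody. Its 4 called H3K27ac sites, 1 at 3 w.p.i. and 3 at 24 w.p.i., were all lost, and so were its 3 Pu.1 sites and 3 of 4 H3.3 sites. Of all called H3K27ac sites 41.4% at 3 w.p.i. and 42.3% at 24 w.p.i. were gained, so most were lost there too. The gained shares at these times were 55.2% and 48.1% for Pu.1 and 58.3% and 52.6% for H3.3. With 50 kb on each side of Fcer1a 4 of 6 Pu.1 sites of 24 w.p.i. were gained. The strongest H3K27ac site, at +11.4 kb within Olfr1404 (173215401 to 173216150), had 12 and 17.6 in Daxx-KO against 48 and 57.8 in WT at 24 w.p.i. (log2 ratio -1.84). For Pu.1 at 3 w.p.i. the site at -7.3 kb (173234101 to 173234950) had 26 and 41.3 against 74.2 and 115.1. At 24 w.p.i. H3K9me3 over overlapping bases (173233951 to 173234550) was 26.8 and 67.8 against 12.4 and 0.

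H3K9me3 around Fcer1a was called at every time, and 8 of 9 sites were gained, in tables where 78.9% (3 w.p.i.), 65.2% (8 w.p.i.), 47.9% (24 w.p.i.) and, in DKO, 73.4% against Daxx-KO and 81.4% against WT of all called sites were gained. The 9 sites come from different contrasts, and 1 place is counted in both DKO comparisons. Most lie downstream, between 11.3 and 22.5 kb from the start site. At 3 w.p.i. the site at +18.4 kb had 20.9 and 10 in Daxx-KO against 1.75 and 5.22 in WT. At 8 w.p.i. the site at +17.6 kb had 19.9, 8.28 and 13.4 against 1.58, 4.22 and 5, and the site at +22.5 kb in DKO had 17.2, 6.91 and 16.1 against 0, 0 and 5.73 in WT. The 1 lost site, at +19.0 kb and 8 w.p.i., had 14.5, 8.28 and 16 against 21.3, 77.6 and 0, where the WT libraries covered both ends of the range. At this Fcer1a site, 173207901-173208600, the log2 ratio turns from -1.35 to 0.28 without WT replicate 2. The site at +22.5 kb was also called in DKO against Daxx-KO, with 16.3, 6.54 and 15.3 against 2.98, 2 and 0, and both comparisons use the same DKO libraries.

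Ms4a2, the beta chain of the receptor, had its H3K27ac sites mostly upstream, where Ms4a3 lies. Of 8 called at 3 w.p.i. 5 were gained, and of 8 at 24 w.p.i. 3 were gained, beside 41.4% and 42.3% of all H3K27ac sites. The site just inside the Ms4a2 start (11622701 to 11623600) was lost at 3 w.p.i., with 0 and 3.4 in Daxx-KO against 37.6 and 11 in WT (log2 ratio -3.84). In Ms4a3 the stretch at -13.8 kb was gained at both times, with 8.72 and 28.9 against 3.22 and 0 at 3 w.p.i. and, at -13.7 kb, 86.9 and 84.9 against 11.2 and 49.8 at 24 w.p.i. The stretch at -16.2 kb was gained at 3 w.p.i. (15.5 and 39.1 against 5.37 and 4.41) and called lost at 24 w.p.i. with groups that overlapped (203.1 and 175.6 against 198.8 and 416.9). Pu.1 was lost at 3 of 3 Ms4a2 sites at 24 w.p.i., where 48.1% of all Pu.1 sites were gained. At +16.8 kb Pu.1 had 31.4 and 18.8 against 83.5 and 53.7. H3.3 inside Ms4a2 at +5.9 kb was 37.5 and 47.5 against 0.92 and 0 at 24 w.p.i.

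At Ms4a2 a block of H3K27me3 sites was called in DKO. All 5 sites called against WT and all 6 against Daxx-KO were gained, beside 56.1% and 65.4% of all called sites. Their densities were above 90.8% and 95.9% of the windows of protein-coding genes. The strongest, within Ms4a3 (11633951 to 11636000), had 56.6, 135.4 and 47.9 in DKO against 1.75, 1.81 and 2.24 in WT (log2 ratio 5.37). Against Daxx-KO it was listed in parts, and the larger (11634651 to 11636000) had 35.2, 140.7 and 37.2 against 9.88, 0 and 1.32 (log2 ratio 4.25). Inside Ms4a2, at +7.5 kb (11615851 to 11616650), DKO had 6.79, 15.7 and 13.1 and WT had 0, 0 and 0, at least 4.08-fold higher at 3 reads per WT library, and Daxx-KO was also 0, 0 and 0 there. The site at -16.1 kb had 10.2, 10.5 and 22.9 against 0, 0 and 0 in WT. All 3 DKO libraries were above every WT and every Daxx-KO library at these sites. The comparisons share the DKO libraries and are not independent of each other.

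**Figure D4:**
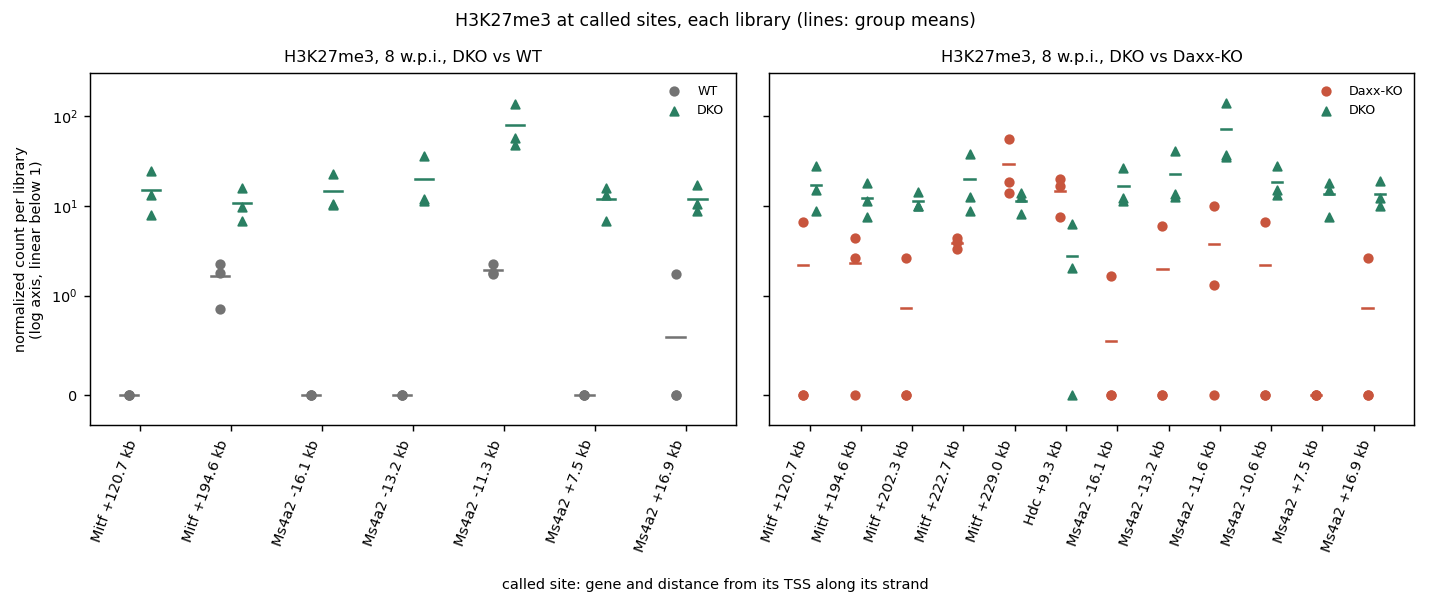
H3K27me3 at 8 w.p.i. at the called sites of the 6 genes, DKO against WT (left) and DKO against Daxx-KO (right), each library a point and each line a group mean, with the normalized count on a log axis that is linear below 1. At Ms4a2 the WT and Daxx-KO libraries lie between 0 and 9.88 and the DKO libraries between 6.79 and 140.7.

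Mitf also gained H3K27me3 in DKO, at 2 of 2 sites against WT and 4 of 5 against Daxx-KO. With 50 kb on each side of the gene 3 of 7 sites against WT were gained, so the majority turns there. At +120.7 kb (97927351 to 97928150), upstream of the second promoter, DKO had 7.92, 24.4 and 13.1 and WT had 0, 0 and 0, at least 5.21-fold higher, and the values against Daxx-KO were 8.79, 28.1 and 14.9 against 6.59, 0 and 0. H3.3 over the same bases (97927251 to 97928150) had been lost in Daxx-KO at 3 w.p.i., with 4.74 and 10.3 against 57.5 and 83.8 in WT (log2 ratio -3.23). Hdc had 1 H3K27me3 site in DKO, in an intron at +9.3 kb, with 6.28, 2.01 and 0 against 16.5, 7.61 and 19.7 in Daxx-KO, and none against WT. Cpa3, Fcer1a and Mcpt8 had no called H3K27me3 site in either DKO comparison. In the same DKO and WT libraries 56.1% of all called H3K27me3 sites were gained. The erythroid markers had 14 gained and 0 lost sites, the eosinophil markers 16 and 3, the HSPC markers 15 and 3 and the neutrophil markers 12 and 3. The B lineage markers had 19 and 76, at 3 of 9 genes, of which 2 had more gained and 1 more lost sites. The part of such markers in the values at Ms4a2 and Mitf was not tested.

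Between 3 and 24 w.p.i., 30 pairs of overlapping sites of the same antibody (by at least 1 bp) were found over the 6 genes in Daxx-KO against WT, 15 with the same direction and 15 with opposite directions. Hdc had 12 of these pairs, 7 in the same direction, Mitf 8, with 4, and Mcpt8 6, with 2. Of pairs of different antibodies at the same time, 35 of 72 had the same direction. Pairs of different antibodies and times were taken over all comparisons, the DKO ones included. Over the 6 genes 56 of 97 such pairs had the same direction. At Mitf 29 of 44 were alike, at Hdc 7 of 12, at Cpa3 1 of 2 and at Mcpt8 2 of 8. At Fcer1a 7 of 8 such pairs were opposite, and at Ms4a2 16 of 23 were alike. At Mitf, Fcer1a and Ms4a2 some of them set a Daxx-KO against WT site beside a DKO site, so their directions belong to different contrasts. A DKO stretch called against both WT and Daxx-KO is counted in each comparison. Several pairs can come from 1 stretch, and antibodies of 1 time share mice, all of them at 24 w.p.i. and some at 3 w.p.i., so these are counts of overlaps and not of independent events. The same count over all called sites was not made, so whether these pairs differ from those elsewhere was not tested.

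Other genes of the pathway, from lists that were put together with earlier results of these data known, were counted in the same windows. Tfeb, Tfe3 and Tfec, the relatives of MITF, had 20 gained and 1 lost H3.3 sites and 28 gained and 7 lost Pu.1 sites at 3 w.p.i., against 6 and 17 and 3 and 10 at Mitf. Their gained shares were 95.2% for H3.3 and 80% for Pu.1, beside 58.3% and 55.2% of all called sites. High shares were not particular to these relatives. In the other pathway lists they were 58.3 to 95.7% for H3.3 and 60.6 to 82% for Pu.1, with the cytokines and the transcription factors highest. The H3K27ac sites of the MITF relatives were 8 gained and 16 lost at 3 w.p.i. and 24 and 20 at 24 w.p.i. for the 2 of 3 genes on the chromosomes listed there. The 11 granule protease genes, some of which share the Mcpt8 window, had 16 gained and 14 lost H3K27ac sites at 3 w.p.i. and 32 and 40 at 24 w.p.i. The 9 genes of granule storage and lipid mediators had 19 and 34, then 75 and 66. The 10 IgE receptor signalling genes, with the kinases Lyn, Fyn, Syk and Btk, had 73 and 79, then 140 and 185 (9 genes). The gained shares of H3K27ac sites at 3 w.p.i. were thus 33.3 to 53.3% in these 4 lists, beside 71.4% at the 6 genes and 41.4% over all sites. A high share was not particular to the 6 genes. The marker lists had 81.8% (HSPC), 75.8% (B lineage), 68.1% (neutrophil), 28.6% (eosinophil) and 21.6% (erythroid) at 3 w.p.i. At 24 w.p.i. 42.3% of all H3K27ac sites were gained.

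The 10 surface receptor genes, with Kit and the interleukin-33 receptor Il1rl1, had 29 gained and 31 lost H3K27ac sites at 3 w.p.i. and 61 and 67 at 24 w.p.i., the 8 transcription factors, with Gata2 and Gata1, 40 and 55, then 85 and 103, and the 3 cytokine genes 2 and 20, then 15 and 18. For H3K27me3 at 24 w.p.i. 41.1% of all called sites were gained. The counts were 3 gained and 35 lost in the surface receptors, 9 and 49 in IgE receptor signalling, 7 and 51 in granule storage and lipid mediators, 1 and 10 in the relatives of MITF, 3 and 15 in the cytokines, 34 and 44 in the transcription factors and 40 and 29 in the granule proteases. By gene the proteases went the other way, with more lost than gained sites at 7 genes and more gained at 4. The marker lists had 15 and 55 (neutrophil), 13 and 49 (HSPC), 8 and 18 (eosinophil), 17 and 34 (erythroid) and 55 and 71 (B lineage). In the B lineage list 8 genes had more lost than gained sites and 1 more gained. In DKO against WT the transcription factors had 14 gained and 1 lost H3K27me3 sites and the surface receptors 6 and 0, beside 56.1% gained over all called sites. IgE receptor signalling had 6 and 2, the cytokines 3 and 0 and the relatives of MITF 2 and 0. The granule proteases had 18 and 14 (56.2% gained) and granule storage and lipid mediators 11 and 8 (57.9%), both near the share of all sites.

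Repeat content and short words were counted in the sequence of the sites. Of the 328 called sites, 10 (3.05%) had 80% or more of their bases soft-masked as repeat, against 8.14% of all 1724016 called sites, and the median masked share was 14.8% against 20.1%. In the middle 300 bases, 23 of 68 H3K27ac sites of 24 w.p.i. held a GAGGAA word (27.2% of all called sites of that table did), 17 a GATA word (22% of all) and 19 an E-box (27.5% of all). Of the 26 Pu.1 sites of 3 w.p.i. 7 held GAGGAA (25.6% of all), and of the 49 of 24 w.p.i. 10 did (26.5% of all). These are shares of matching words and carry no test.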

How the data were processed

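CUT&Tag libraries of H3.3, Pu.1, H3K27ac, H3K9me3 and H3K27me3 were compared by the authors with diffReps 1.55.6 (negative binomial test, windows of 600 bp moved by 50, fragment size 100, window p cutoff 0.0001, per the file headers) on reads mapped to mm10. The submitters' processing notes also name CASAVA 1.8.4, cutadapt 1.13, STAR 2.5.3 and bedtools, with no role. The deposited tables give, for each listed site, the reads of each library divided by that library's normalization constant, the mean signal of each group, and an adjusted p-value. The p-value served only to keep sites under 0.05. The authors' fold changes and p-values are not printed. Tables of 24 w.p.i. leave out the sex chromosomes, and 1 table, for H3K27me3 at 8 w.p.i., was not used because its headers name libraries of another mark as controls.

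Windows were the gene bodies of GENCODE M21 with 20 kb on each side, and any overlap of at least 1 bp placed a site in a window. Group means, log2 ratios without a pseudocount and Wilson intervals were computed in Python 3.11.15 (numpy 2.4.6, scipy 1.17.1, matplotlib 3.10.9). Where a group was at 0, a bound was computed against 3 reads per library. The steps passed 8 of 8 checks on simulated sites. Groups were taken from the labels. The labels give a mouse for every library used but WT replicate 1 of H3.3 and of Pu.1 at 3 w.p.i., and the labelled replicates of a group are different mice. No test was run on sites selected by their own contrast.

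The 6 genes and all gene lists were chosen with earlier results of these data known. By the rule for named sites, the text gives every library for sites with the highest group mean, sites within 1 kb of a start site, and sites that overlap another antibody or time. As the last part covers most sites, only the main ones are given and the others appear as counts and ranges.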

Additional observations from a re-analysis of the deposited data

Results flagged for a closer look

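At 8 places sites for 1 antibody that overlapped by at least 50% of the shorter site had every Daxx-KO library on one side of WT at 3 w.p.i. and on the other side at 24 w.p.i. The difference between the times was not tested, the mice differ and the tables were normalized separately. Such pairs with complete separation of the libraries at both times numbered 19, of which 11 had the same direction.

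At Mcpt8, H3.3 over Ctsg had a log2 ratio of -3.07 at 3 w.p.i. and 2.89 at 24 w.p.i., and H3K27ac between Ctsg and Mcpt8 (56096701 to 56097450) had 2.53 and then -1.96. At Mitf, Pu.1 at 97831551 to 97832300 had 1.07 and was then at least 40.8-fold lower in Daxx-KO, and Pu.1 at 98012801 to 98013500 had -2.88 and was then at least 23.6-fold higher. H3K27ac of Mitf at 97829301 to 97830050 had 2.12 and then -1.06. At Hdc, H3K27ac had -4.07 and then 0.93 at 126596051 to 126596850, -1.17 and then 0.47 at 126617051 to 126617900, and 1.63 and then -1.16 at 126636851 to 126637650.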

How the results depend on the processing

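The share of gained sites over the 6 genes was recomputed with all listed sites, adjusted p under 0.01, an absolute log2 ratio of at least 1, a mean of at least 20, complete separation of the libraries, other windows, a stricter overlap and joined sites. Of 122 such values 118 stayed within the interval of the reported share. For H3K9me3 in Daxx-KO at 8 w.p.i. (66.7%, 3 sites) the share was 0% with a mean of at least 20 and 100% with complete separation. For H3K27me3 it was 57.9% in DKO against WT with 50 kb on each side and 0% in Daxx-KO at 24 w.p.i. in gene bodies alone. Leaving out each library gave 38.8 to 40.8% for Pu.1 at 24 w.p.i., 69 to 71.4% for H3K27ac at 3 w.p.i. and 66.7 to 100% for H3K9me3 in Daxx-KO at 8 w.p.i., where WT replicate 2 decides, and left the other shares as reported, which the selection of the sites largely fixes. Leaving out each library in turn, the log2 ratio of the H3K27ac site at the first Mitf promoter at 3 w.p.i. ranged from -0.67 (without Daxx-KO replicate 2) to 2.91, and that of the lost H3K9me3 site of Fcer1a at 8 w.p.i. from -1.94 to 0.28 (without WT replicate 2). Of 290 counts per gene 77 moved by more than 1.5 times, and the majority direction turned in 5. The 466 log2 ratios with a pseudocount of 1 or 5 kept their direction, which the same constant added to both means cannot change. No value came from a mean of at least 20 for H3K9me3 at 3 w.p.i. or in DKO, or from gene bodies alone for H3K9me3 in Daxx-KO at 8 w.p.i. No paired analysis was possible because libraries of different genotypes with the same number come from different mice that no label ties together. The 8 w.p.i. libraries had 0.2 to 3.29 mean reads per window, so that single reads weigh on their values.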
